A study of Caenorhabditis briggsae with 9 samples.

Results

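The transcriptome of third-stage (L3) larvae of AF16, the wild-type isolate of the nematode Caenorhabditis briggsae, was described from 3 of the 9 RNA-seq libraries of a study of vulval development. The libraries were chosen by their strain label, and each held read counts for 22922 gene identifiers. The study set AF16 beside 2 mutant strains with 3 libraries each, gu163, an allele of Cbr-spr-4 (also named Cbr-ivp-1), and gu167, an allele of Cbr-htz-1 (also named Cbr-ivp-2). Those strains are not compared here. AF16 animals were kept at 20 degrees and synchronized by bleaching, then staged by Nomarski microscopy and taken as the vulval precursor cells were about to divide. RNA came from whole animals and was depleted of ribosomal RNA. The labels describe the 3 preparations as biologically independent. In whole-animal RNA, fewer cells of a type and less RNA per cell cannot be told apart.

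Nematode larvae build a new cuticle in every larval stage. In C. elegans, hypodermal cells make the collagens of each cuticle in successive waves, early, intermediate and late between molts. During L3 of C. elegans the gonadal anchor cell releases the EGF-like protein LIN-3. The receptor LET-23 and a Ras and MAP kinase cascade then direct vulval precursor cells to vulval fates, while Notch and Wnt signals pattern the same cells. The germ line is still immature at that time, and yolk, eggshell and sperm proteins are products of later life.

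Levels are given as CPM, the count scaled to the library total. A level of 1 CPM stood for about 9.63, 12.1 and 10.7 counts in replicates 1, 2 and 3. CPM is a share of the reads and depends on transcript length, so levels of different genes are shares of the library and not molecule numbers. The totals were 9627966, 12062124 and 10654323 counts in replicates 1, 2 and 3. A count of 3, taken as the floor, equals 0.312, 0.249 and 0.282 CPM in the same libraries.

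Replicate 3 stood apart from the other libraries. Log2 levels of the 8942 genes with a mean of at least 5 CPM correlated at r = 0.975 between replicates 1 and 2, 0.943 between 1 and 3, and 0.945 between 2 and 3, across genes, which are not independent replicates. More than 2-fold apart were 342 of these genes between replicates 1 and 2, 1814 between 1 and 3, and 1311 between 2 and 3. The counts of replicate 3 were also held by fewer genes. Its 100 most abundant genes took 34.6% of the counts, against 26.7% and 28.4% in replicates 1 and 2. The median gene therefore lay 0.26 below its own 3-library average in replicate 3 on the log2 scale, and 0.18 and 0.09 above it in replicates 1 and 2. TMM scaling, which sets the bulk of genes equal between libraries, gave factors of 1.14, 1.05 and 0.834. Statements on which library was higher are given by library totals, and a change of order under TMM is named beside them.

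The label, whole larvae before adulthood, was checked against marker genes. Markers of the intestine (7 of 7), muscle (5 of 5), neurons (6 of 6) and hypodermis (5 of 5) all reached 1 CPM in every library. The 7 intestinal markers summed to 2990, 3511 and 3475 CPM in replicates 1, 2 and 3, and the 6 neuronal markers to 161, 148 and 144 CPM. The muscle markers summed to 11615, 12598 and 19825 CPM, highest in replicate 3, and the hypodermal markers to 1281, 922 and 649 CPM, lowest in replicate 3. Of 5 germline markers, 4 were detected, with sums of 33.2, 20.2 and 18.2 CPM. Markers of sperm and of oocytes and eggshell were low, whereas 1 yolk gene was not. Sperm markers summed to at most 0.208 CPM in any library, and Cbr-spe-9 and Cbr-gsp-4 had no count in any. Oocyte and eggshell markers summed to 6.44, 4.97 and 4.13 CPM. The wider list of 26 oocyte and eggshell genes was not as low. It had 12 genes detected and summed to 400, 397 and 343 CPM. Its most abundant members were Cbr-mbk-2, with 113, 95.5 and 144 CPM, and Cbr-egg-6, with 98.7, 146 and 51.7 CPM. Which cells those reads came from was not tested.

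Among the yolk protein genes, Cbr-vit-6 was measured at 47.8, 60.5 and 44.1 CPM. Cbr-vit-2 had 3, 1 and 25 counts, Cbr-vit-4 had 2, 3 and 24 counts, and Cbr-vit-5 had 0, 0 and 5 counts in replicates 1, 2 and 3. Cbr-vit-6 was highest in replicate 2 and lowest in replicate 3, whereas by TMM replicate 1 was its lowest library. The other 3 genes were highest in replicate 3, on few counts and at levels no higher than 2.35 CPM.

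Muscle, protein synthesis, fat synthesis and cuticle genes led the transcriptome. Cbr-unc-54, which encodes the major myosin heavy chain of body wall muscle, took the largest share of reads, with 8195, 8332 and 14340.5 CPM in replicates 1, 2 and 3 (mean 10289 ± 3509 CPM, SD, n = 3). Replicates 1 and 2 lay close together, and replicate 3 was 1.75-fold above the lowest. The translocase Cbr-eft-2, elongation factor 2, followed with 7137, 7634 and 8853 CPM. Cbr-ahcy-1, the S-adenosylhomocysteine hydrolase of the methylation cycle, had 4966, 5361 and 7135 CPM.

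Ribosomal genes filled much of the next ranks. Cbr-rpl-3, a large-subunit protein, had 5021, 5271 and 6585 CPM, and Cbr-rpa-0, the P0 protein of the ribosomal stalk, had 4847, 5769 and 6069 CPM. Cbr-rpl-7, Cbr-rps-0, Cbr-rpl-10, Cbr-rps-7, Cbr-rpl-2 and the ribosome-bound scaffold Cbr-rack-1 averaged between 4035 and 4248 CPM. The other genes of the top 15 were of separate functions. Cbr-fasn-1, the fatty acid synthase, had 4565, 7082 and 3529 CPM and differed from its neighbours in rank by being highest in replicate 2. Cbr-col-166, a cuticle collagen, had 2920, 4000 and 6282 CPM. Cbr-asp-1, an aspartyl protease of the intestine, had 3463, 4390 and 5161 CPM. The fifteenth gene, Cbr-tag-61, whose C. elegans counterpart is a mitochondrial ADP/ATP carrier, had 3805, 3658 and 4590 CPM.

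The order of the top genes was only partly fixed by these data. Between the ninth and the fifteenth gene the means spanned 4018 to 4248 CPM, and the SD of each between libraries was 495 to 825 CPM. All these genes were highest in replicate 3, so that SD does not measure how certain their order is. Cbr-rpl-7 was above Cbr-rpl-10 in every library. Cbr-rps-7 was above Cbr-rpl-10 in replicates 1 and 2 and below it in replicate 3. The 10 genes with the highest means together held 4.82, 5.59 and 6.78% of the counts in replicates 1, 2 and 3 (5.73 ± 0.988%, SD, n = 3). Only 194 genes averaged over 1000 CPM, and 1378 lay between 100 and 1000 CPM. To reach 50% of all counts took the top 383 genes in replicate 1, 329 in replicate 2 and 210 in replicate 3.

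**Figure D1:**
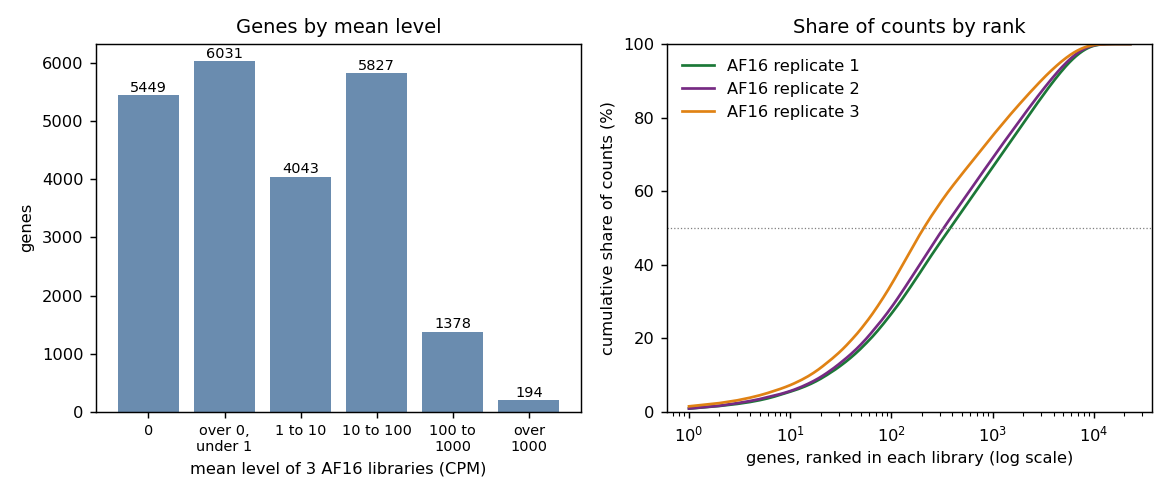
Left, number of genes (y axis) in each class of mean level over the 3 AF16 libraries (x axis, CPM), with the count above each bar. Right, cumulative share of counts (y axis, %) against genes ranked from the most abundant in each library (x axis, log scale), with a dotted line at 50%; the curve of replicate 3 runs above the others and reaches the line at 210 genes, against 383 and 329 in replicates 1 and 2.

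Summed over families, cytosolic ribosomal proteins took the largest share of reads of the 35 gene lists. All 77 listed genes were detected, and together they held 15.1, 17.04 and 20.6% of counts in replicates 1, 2 and 3. Of the 77, 74 were highest in replicate 3, against 17.3% of all genes with a mean of at least 5 CPM. Lowest in replicate 1 were 70, against 13.4% of all such genes. By TMM those shares of all such genes were 41.1% and 36.3%. The median ratio of highest to lowest library in the list was 1.37. The lowest member, Cbr-rpl-11.1, had 82.7, 57.5 and 73.6 CPM. Levels of genes with near-identical copies are uncertain, because no source used here says how reads matching several copies were counted. The elongation factor 1-alpha genes Cbr-eft-3.1 and Cbr-eft-3.2 show the same limit, with only 6, 6 and 17 counts for the first and 7, 12 and 20 counts for the other.

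Mitochondrial ribosomal proteins had the opposite order of libraries. All 62 were detected, with sums of 4388, 3731 and 2744 CPM, and 58 were highest in replicate 1 and 59 lowest in replicate 3. Of all tested genes, 53.4% were highest in replicate 1 and 69.5% lowest in replicate 3, so this is also the general order on library totals. With TMM scaling the same order held for their sums, but the range narrowed to 1.17-fold. The most abundant were Cbr-mrps-18A with 161, 138 and 76.7 CPM and Cbr-mrps-5 with 143, 121 and 101.1 CPM. The sums of proton-pump and energy genes lay close together on library totals. The 32 respiratory chain genes summed to 13442, 12661 and 13460 CPM, the 18 genes of glycolysis and energy metabolism to 10721, 10036.5 and 10726 CPM, and the 19 vacuolar ATPase genes to 6290, 6454 and 6623 CPM. By TMM those lists were highest in replicate 3, by 1.37- to 1.44-fold over the lowest library. Single members varied more. The ATP synthase subunit gene Cbr-asb-2 had 1387, 674.3 and 1460.4 CPM, and the proton-pump gene Cbr-vha-13 had 761.8, 825 and 1306 CPM.

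Genes of muscle contraction, 38 of 40 detected, held 31306, 32080 and 44437 CPM in all. Replicate 3 was 1.42-fold above the lowest library, and 26 of 36 members with a mean of at least 5 CPM were highest in it. Of all genes with such a mean, 17.3% were highest in replicate 3 on library totals and 41.1% by TMM. Beside Cbr-unc-54, the body wall myosin Cbr-myo-3 had 2373, 2587 and 3526 CPM. Tropomyosin Cbr-lev-11 had 1308, 1319 and 2226 CPM, and paramyosin Cbr-unc-15 had 1026, 1657 and 1929 CPM. The troponin C gene Cbr-pat-10 was level on library totals, with 2729, 2742 and 2735 CPM, but by TMM it too was highest in replicate 3, with a ratio of 1.37. The pharyngeal myosin Cbr-myo-2, at 4.99, 8.29 and 15.9 CPM, had the largest ratio of the list, 2.98-fold.

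The cuticle collagens summed to 31430, 29031 and 41075 CPM, and 80 of 138 were detected. Cbr-col-166 was followed by Cbr-col-125 with 1921, 2262 and 4916 CPM and Cbr-col-147 with 1934, 2737 and 2718 CPM. Genes of molting and cuticle processing, 32 of 33 detected, summed to 13932, 11900 and 8823 CPM. The leading ones were Cbr-pdi-2, a protein disulfide isomerase subunit of the collagen prolyl hydroxylase, with 3598, 2003 and 2606 CPM, and the apical matrix protein Cbr-noah-1 with 1556, 1809 and 674.8 CPM. Intestinal genes summed to 13650, 16187 and 16146 CPM, with Cbr-act-5, the microvillar actin, at 1254, 1521 and 1710 CPM.

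**Figure D2:**
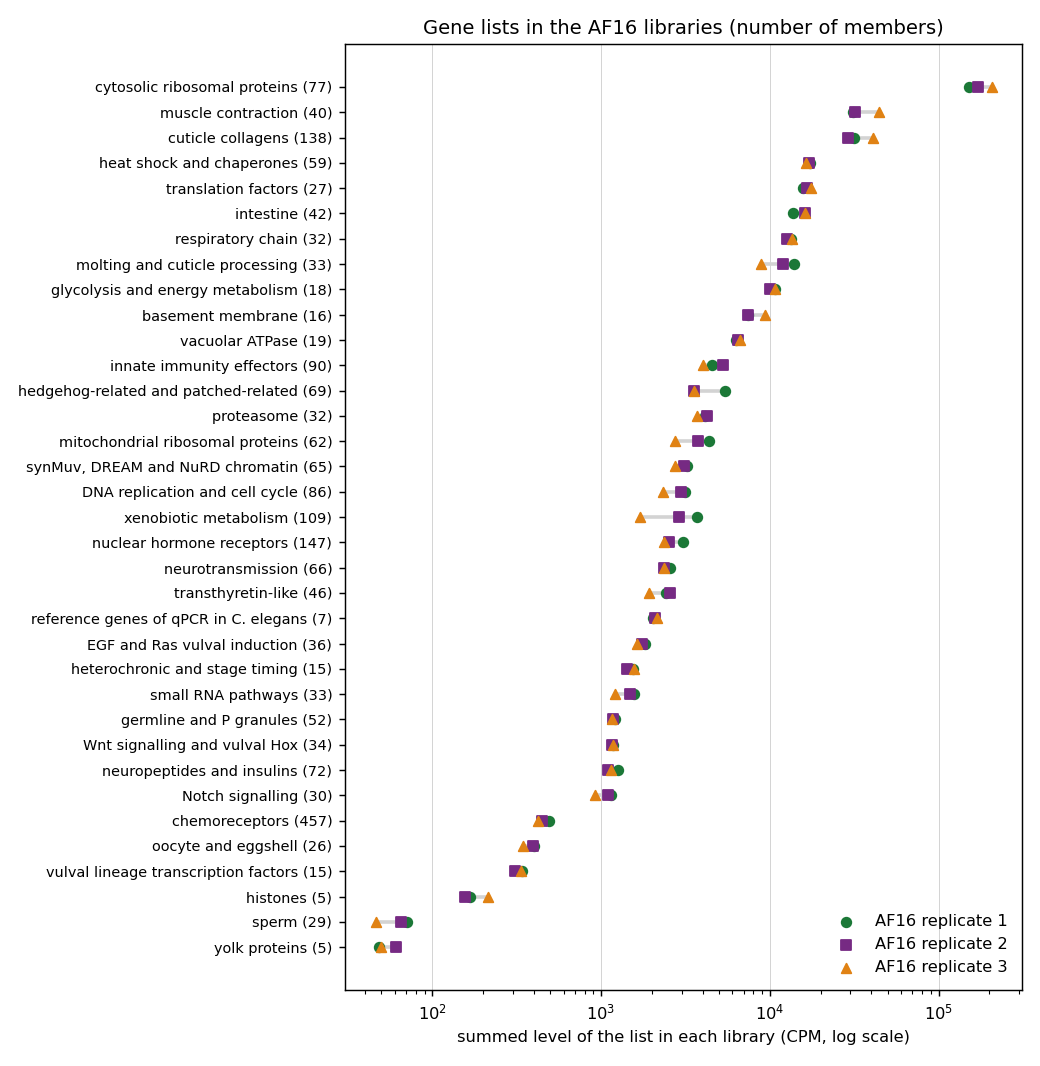
Summed level of each of the 35 gene lists (x axis, CPM, log scale) in AF16 replicates 1, 2 and 3 (circles, squares and triangles), with the number of members in brackets and a grey line from the lowest to the highest library. Cytosolic ribosomal proteins lie at the top between 151332 and 206272 CPM, and yolk proteins lie near the bottom at 48.3 to 60.9 CPM.

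Of the 22922 identifiers, 10677 (46.6%) were detected, meaning at least 1 CPM in 3 of 3 libraries. A further 671 reached 1 CPM in 2 libraries and 686 in 1 library, and 5439 had counts but stayed under 1 CPM throughout. No count in any library was found for 5449 identifiers (23.8%), called silent below. At this depth, each library allows a level of up to 0.312, 0.249 or 0.282 CPM for a gene without a count, by counting error alone. Another 2733 identifiers had only 1 to 3 counts over all libraries.

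Protein-coding genes made up nearly all that was detected, with 10673 of 21922 at 1 CPM in every library (48.7%) and 4743 silent (21.6%). None of 777 tRNA genes was detected and 580 were silent, and the class summed to 16.4, 11.5 and 13.98 CPM. Genes that carry a symbol, mostly named after a C. elegans counterpart, were detected in 4529 of 5899 cases (76.8%) and silent in 354 (6.001%). Among the 17023 identifiers without a symbol, 6148 were detected (36.1%) and 5095 were silent (29.9%).

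Of the 195 identifiers that no reference entry matched, 4 were detected, and 2 of them were among the most abundant of all. CBG26766 had 5608, 1753 and 229 CPM and CBG26767 had 5137, 2384 and 931 CPM in replicates 1, 2 and 3. Both were highest in replicate 1 and lowest in replicate 3, and neither has an annotation in the sources used here. The unmatched identifiers together summed to 10806, 4204 and 1213 CPM.

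Chemoreceptor genes formed the largest silent group among the lists. These 7-transmembrane receptors are in C. elegans expressed in single or few sensory neurons. Only 15 of 457 were detected (3.28%) and 215 were silent (47.05%), against 46.6% and 23.8% of all identifiers. Silent members were 8 of 11 srj genes, 18 of 27 srt genes and 44 of 77 str genes. One receptor was an exception. Cbr-sre-21 had 266, 269 and 301 CPM, more reads than the other members of the list together. Next came Cbr-srg-54 with 46.9, 54.1 and 27.03 CPM and Cbr-srr-4 with 26.6, 16.7 and 26.9 CPM.

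Genes of neuronal signalling in general were mostly detected. Of 66 neurotransmission genes 57 reached 1 CPM in every library, and none was silent. Cbr-unc-25, the glutamate decarboxylase of GABA neurons, had 43.7, 47.3 and 49.2 CPM. The vesicular glutamate transporter gene Cbr-eat-4 had 8.21, 11.7 and 11.7 CPM, and the choline acetyltransferase gene Cbr-cha-1 had 10.2, 9.87 and 7.23 CPM. Genes of serotonin and dopamine neurons, of which C. elegans has few, were not detected in every library. The serotonin enzyme Cbr-tph-1 had 4, 2 and 3 counts, and the dopamine enzyme Cbr-cat-2 had 7, 6 and 13 counts, which is over 1 CPM in replicate 3 alone. Neuropeptide and insulin genes were detected in 50 of 72 cases, led by Cbr-nlp-27 with 267, 190 and 152 CPM.

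Sperm genes were detected in 4 of 29 cases and silent in 11. The 4 detected, Cbr-spe-39, Cbr-swm-1, Cbr-spe-15 and Cbr-spe-27, include genes known outside sperm: C. elegans SPE-39 works in vesicle traffic of many cells, and SPE-15 is a myosin VI. Germline and P granule genes were detected in 30 of 52 cases, with sums of 1218, 1170 and 1155 CPM. The most abundant were the Pumilio family genes Cbr-puf-12, with 240, 232 and 174 CPM, and Cbr-puf-9, with 186, 171 and 198 CPM. Whole-animal counts do not show which cells these reads came from, so the sum is not a measure of the germ line alone. The 5 germline markers given above summed to 33.2, 20.2 and 18.2 CPM. Cbr-glh-1, a helicase of P granules, had only 14.1, 6.55 and 6.10 CPM. Replication and cell cycle genes were detected in 83 of 86 cases and summed to 3139, 2997 and 2322 CPM. With TMM the sums of that list no longer put replicate 3 lowest, and they lay within 1.04-fold of each other.

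The vulval induction pathway was almost complete in whole-animal RNA, except for its ligand. Of 36 genes of the EGF and Ras list, 35 were detected, against 76.8% of all genes with a symbol. None of the 34 tested was past 4-fold between libraries. That is near the general share, 2.04% of all tested genes with a symbol. The exception was Cbr-lin-3, the EGF-like ligand, with 7, 3 and 6 counts in replicates 1, 2 and 3, or 0.727, 0.249 and 0.563 CPM. With at most 7 reads in a library, no difference between libraries can be read from these counts. In C. elegans lin-3 is made at this stage by the anchor cell and few other cells.

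Downstream of the ligand, the receptor Cbr-let-23 had 20.5, 18.7 and 16.7 CPM (18.6 ± 1.88 CPM, SD, n = 3). The adaptor Cbr-sem-5 had 21.2, 18.2 and 18.02 CPM, and the exchange factor Cbr-sos-1, which loads Ras with GTP, had 18.1, 14.8 and 19.7 CPM. The ratio of the highest to the lowest library was at most 1.32 for these 3 genes.

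The Ras gene Cbr-let-60 had 65.8, 57.0 and 66.3 CPM, the Raf gene Cbr-lin-45 had 51.1, 44.7 and 57.8 CPM, and the MAP kinase kinase gene Cbr-mek-2 had 59.1, 54.6 and 43.9 CPM. The last kinase of the cascade, Cbr-mpk-1, had 22.02, 20.3 and 50.6 CPM. It was 2.45-fold higher in replicate 3 than in replicate 2, the largest ratio of the list. By TMM replicate 1 was its lowest library, and replicate 3 was 3.09-fold above that. Replicates 1 and 2 were close together for this gene.

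The complex that places the receptor in the basolateral membrane is formed in C. elegans by LIN-2, LIN-7 and LIN-10. Their genes had 37.4, 30.1 and 31.4 CPM (Cbr-lin-2), 54.4, 51.9 and 37.8 CPM (Cbr-lin-7) and 66.5, 69.6 and 66.6 CPM (Cbr-lin-10). Inhibitors of the pathway were detected too. The GTPase-activating gene Cbr-gap-1 had 68.9, 77.9 and 57.2 CPM, and the E3 ligase gene Cbr-sli-1, a Cbl homologue, had 33.03, 29.6 and 22.9 CPM. Cbr-ark-1, a kinase gene that limits LET-23 signalling in C. elegans, had 37.4, 33.7 and 50.8 CPM. The MAP kinase phosphatase gene Cbr-lip-1 had 14.02, 11.8 and 15.1 CPM. The receptor phosphatase gene Cbr-dep-1, at 165, 175 and 77.2 CPM, was 2.26-fold lower in replicate 3 than in replicate 2.

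The scaffold gene Cbr-ksr-1 had 33.9, 32.5 and 23.6 CPM, and its paralogue Cbr-ksr-2 had 4.99, 6.05 and 5.26 CPM. The largest share of reads in the list went to Cbr-sur-5, with 202, 205 and 226 CPM. The smallest shares after the ligand went to Cbr-lin-31, a forkhead factor that acts below MAP kinase, with 2.29, 2.07 and 2.35 CPM. The whole list summed to 1812, 1742 and 1625 CPM. By TMM the order of the libraries was the reverse, with 1588, 1658 and 1948 in TMM-scaled CPM.

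The genes mutated in the other strains of the study were well measured in AF16. Cbr-spr-4 had 90.8, 113 and 89.5 CPM (97.6 ± 13.04 CPM, SD, n = 3), and Cbr-htz-1, the H2A.Z histone variant gene, had 62.5, 57.1 and 58.7 CPM (59.4 ± 2.78 CPM). Around them, 60 of 65 genes of the synMuv, DREAM, NuRD and presenilin-suppressor chromatin list were detected, led by the Mi-2 homologue Cbr-let-418 with 305, 308 and 196 CPM.

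**Figure D3:**
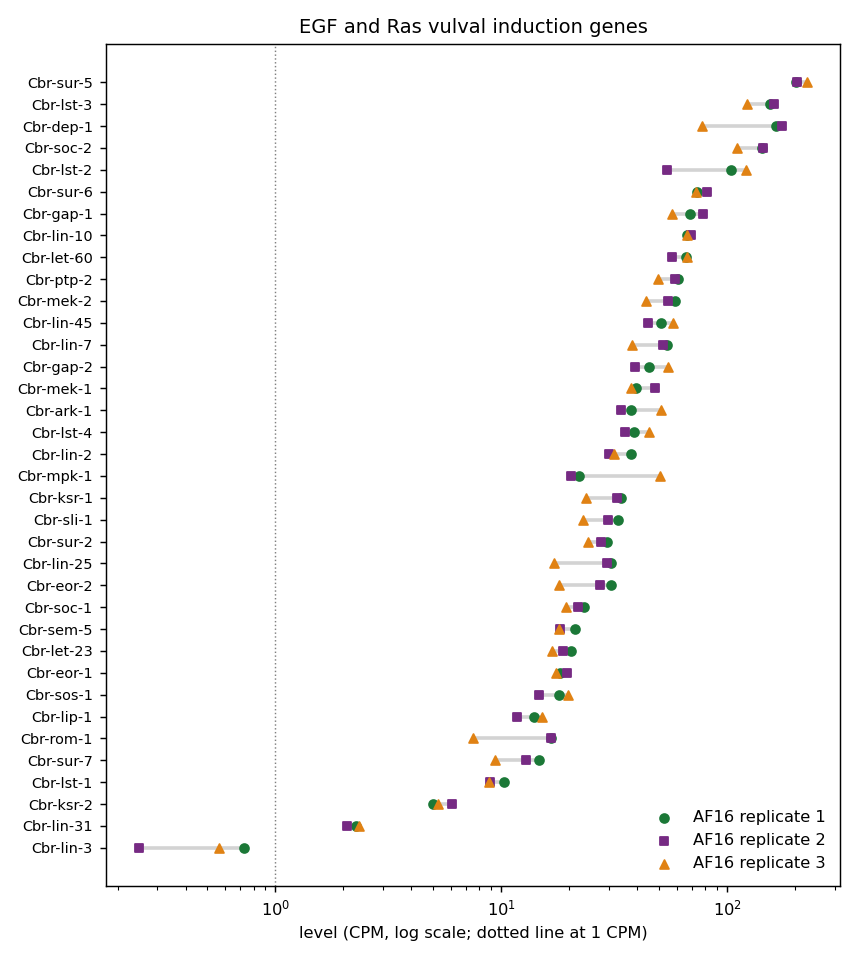
Level of each of the 36 EGF and Ras vulval induction genes (x axis, CPM, log scale) in AF16 replicates 1, 2 and 3 (circles, squares and triangles), ordered by mean, with a grey line from the lowest to the highest library and a dotted line at 1 CPM. Cbr-lin-3 is the gene left of the dotted line, at 0.249 to 0.727 CPM, and Cbr-sur-5 is at the top, at 202 to 226 CPM.

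In the Notch pathway, too, ligand genes lay under the threshold. Of 30 Notch genes 25 were detected and 2 were silent. The receptor gene Cbr-lin-12 had 4.05, 1.99 and 1.22 CPM, and the receptor gene Cbr-glp-1, used in the germ line, had 7.37, 7.71 and 5.54 CPM. The ligand genes Cbr-lag-2, with 4, 3 and 2 counts, and Cbr-apx-1, with 5, 9 and 6 counts, were under 1 CPM, and Cbr-dsl-1 had no count. A secreted co-ligand gene, Cbr-osm-11, had 76.4, 69.6 and 106 CPM. Of 34 Wnt and Hox genes 32 were detected. The Wnt gene Cbr-egl-20 had 90.8, 77.1 and 75.7 CPM, the beta-catenin gene Cbr-bar-1 had 43.1, 45.1 and 38.9 CPM, and the Hox gene Cbr-lin-39, which acts in the vulval precursor cells of C. elegans, had 4.47, 2.82 and 5.63 CPM.

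Transcription factors of the vulval lineage were detected in 13 of 15 cases. Cbr-lin-26, a hypodermal factor, had 75.9, 73.6 and 71.8 CPM, and Cbr-lin-11, which in C. elegans acts in the secondary vulval lineage, had only 2.18, 1.66 and 1.31 CPM. Under 1 CPM were Cbr-hlh-3, with 2, 8 and 4 counts, and Cbr-nhr-67, with 0, 2 and 1 counts. In C. elegans nhr-67 acts in the anchor cell.

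All 15 heterochronic and stage-timing genes were detected. Cbr-lin-14, which in C. elegans is high in the first larval stage, had 50.1, 44.2 and 90.5 CPM, and Cbr-lin-28 had 20.2, 17.1 and 15.4 CPM. Cbr-lin-41, a target of let-7, had 105, 115 and 174 CPM, and Cbr-hbl-1 had 31.9, 37.97 and 47.2 CPM. Cbr-lin-29, a zinc-finger factor that in C. elegans acts at the larval-to-adult switch and in the anchor cell and vulva, had 20.8, 17.7 and 5.82 CPM. On library totals replicate 3 was therefore highest for Cbr-lin-14, Cbr-lin-41 and Cbr-hbl-1 and lowest for Cbr-lin-28 and Cbr-lin-29. It was also lowest for Cbr-dre-1, with 215, 218 and 115 CPM, and Cbr-din-1, with 254, 221 and 172 CPM. Of the 15 genes, 8 were highest and 6 lowest in replicate 3. Of all tested genes, 17.3% were highest and 69.5% lowest there, and by TMM 41.1% and 41.9%. The ratio of 3.37 for Cbr-lin-29 was the largest of the list. Under TMM Cbr-lin-29 kept a ratio of 2.50.

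Variation among the 3 libraries was measured as the ratio of the highest to the lowest library, with 0.5 CPM added to each level, over the 8942 genes with a mean of at least 5 CPM. The median ratio was 1.53. Ratios over 2 were found for 2189 genes (24.5%) and over 4 for 283 genes (3.16%). This ratio chose the variable genes, so their values are given as a description. The last genes inside the threshold were Cbr-ncx-6, Cbr-nhr-92 and CBG11371 at 4.003 to 4.008, and the first outside were CBG15238, CBG10023 and CBG11062 at 3.975 to 3.987.

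For most genes the libraries differed by more than counting error. A chi-square test of the counts against the library totals called 8625 of 11560 genes with a mean of at least 10 counts (74.6%), at a Benjamini-Hochberg adjusted p under 0.05. The common biological coefficient of variation from edgeR was 28.4% over the same genes, and 19.5% without replicate 3.

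Replicate 3 carried most of the large ratios. It was the lowest library for 231 of the 283 genes (81.6%, and 2.58% of all genes tested), whereas it was lowest for 69.5% of all tested genes whatever their ratio. Replicate 2 was lowest for 45 of the 283 (0.503% of genes tested) and replicate 1 for 7 (0.0783%). The highest library was replicate 1 for 193 genes (2.16%), replicate 2 for 66 (0.738%) and replicate 3 for 24 (0.268%). Without replicate 3, 33 of the 283 remained over 4-fold. With TMM scaling 141 of them remained, 37 others passed, and replicate 3 was the lowest library for 52.2% and the highest for 37.1% of the genes past 4-fold.

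**Figure D4:**
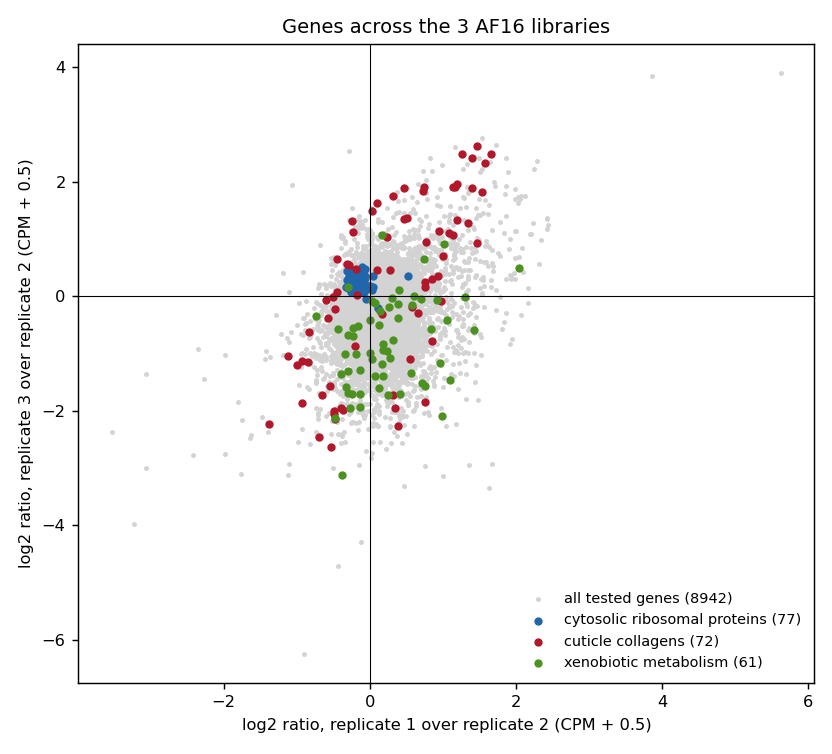
Each point is a gene with a mean of at least 5 CPM, placed by the log2 ratio of replicate 1 over replicate 2 (x axis) and of replicate 3 over replicate 2 (y axis), both on CPM + 0.5; grey points are all 8942 tested genes. Ribosomal protein genes (blue, 77) lie in a tight group above the horizontal line, collagens (red, 72) are spread along both axes, and most xenobiotic metabolism genes (green, 61) lie below the horizontal line, with replicate 3 lowest for 53 of them. Replicate 3 was also lowest for 69.5% of all tested genes.

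The largest ratios belonged to genes without a symbol. CBG12812 had 61.4, 115 and 1.03 CPM in replicates 1, 2 and 3, a 75.6-fold range. CBG12814 had 76.4, 103.96 and 3.47 CPM and CBG12815 had 15.2, 16.6 and 0.375 CPM. The last pair are direct neighbours in the reference annotation and shared the same order, with replicate 3 far below the other libraries. CBG20332 had 41.8, 13.2 and 0.845 CPM, and CBG19162 had 196, 97.7 and 10.7 CPM.

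A few large ratios did not follow replicate 3. CBG13244 had 233, 0 and 74 counts, with replicate 2 alone empty. CBG11402, chosen after its values were seen, had 88, 2 and 96 counts. At the other extreme CBG10605, likewise chosen after its values were seen, was highest in replicate 3, with 1055, 1285 and 7491 CPM. In all, 7 genes reached at least 5 CPM in one library with at most 3 counts in another, CBG13244, CBG11402, CBG03514, CBG10127, CBG15405, CBG18515 and the chemoreceptor Cbr-str-46, which had 63, 47 and 1 counts. In 5 of the 7 genes the low library was replicate 3, a share near the general one. Replicate 3 was lowest for 69.5% of all genes with a mean of at least 5 CPM.

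Among the variable genes with a symbol, enzymes and immune-type genes stood beside cuticle genes. Cbr-ugt-1, a UDP-glucuronosyltransferase gene, had 22.1, 29.02 and 2.91 CPM, and the cytochrome P450 gene Cbr-cyp-14A1 had 21.9, 10.9 and 2.16 CPM. The C-type lectin genes Cbr-clec-180, with 339, 238 and 44.7 CPM, and Cbr-clec-225, with 73.5, 56.5 and 10.04 CPM, were likewise lowest in replicate 3. So were the nuclear receptor gene Cbr-nhr-212, with 16.1, 10.4 and 1.78 CPM, the antimicrobial peptide gene Cbr-cnc-4, with 24.3, 10.3 and 3.003 CPM, and the folate transporter gene Cbr-folt-1, with 71.0, 50.1 and 11.4 CPM. The metallothionein gene Cbr-mtl-1 was high in replicate 2 alone, with 1.14, 13.2 and 1.22 CPM.

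Xenobiotic metabolism as a list had the widest range of summed level by library totals, 3711, 2894 and 1696 CPM, or 2.19-fold. The 109 genes encode cytochrome P450, glutathione transferase and UDP-glucuronosyltransferase enzymes, and 71 were detected. Of the 61 tested, 53 were lowest in replicate 3, as were 69.5% of all tested genes on library totals. Past 4-fold were 10 of the 61 (16.4%, against 3.16% of all tested genes). With TMM scaling the order of the sums held, the range was 1.60-fold (1.94-fold for muscle contraction on that scale), and 3 of the 10 remained past 4-fold. Cbr-gst-10.2 had 606, 291 and 219 CPM and Cbr-ugt-48 had 338, 284 and 85.8 CPM. Without replicate 3, Cbr-cyp-35B2 was the only one of the 10 past 4-fold.

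Innate immunity effectors had 6 of 37 tested genes past 4-fold (16.2%, against 3.16% of all tested genes). Of these, 4 were highest in replicate 1 and lowest in replicate 3, and Cbr-clec-60 and Cbr-clec-5 were highest in replicate 2 and lowest in replicate 1. Among all 283 genes past 4-fold those orders held for 60.1% and 1.77%. Cbr-clec-60 had 3.95, 22.2 and 11.4 CPM, and Cbr-clec-5 had 11.9, 59.4 and 21.6 CPM. The abundant effectors varied less, with Cbr-clec-50 at 1107, 1600 and 1194 CPM and the lysozyme gene Cbr-ilys-5 at 901, 1073 and 896 CPM.

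The collagens varied in distinct patterns. Of 72 tested, 15 were past 4-fold (20.8%, against 3.16% of all tested genes), and the median ratio was 2.56 against 1.53. In 6 of the 15, replicate 2 was highest and replicate 3 lowest, an order held by 21.6% of the 283 genes past 4-fold. Cbr-dpy-10 had 359, 498 and 111.9 CPM, Cbr-dpy-7 had 239, 338 and 83.7 CPM, and Cbr-col-46 had 38.5, 56.1 and 8.63 CPM. The others were Cbr-col-128, Cbr-col-141 and Cbr-col-150.

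In another 5 of the 15, replicate 3 was highest and replicate 2 lowest, an order held by 7.77% of the 283 genes past 4-fold. Cbr-col-48 had 24.1, 8.37 and 54.2 CPM, Cbr-col-97 had 50.3, 15.6 and 89.6 CPM, and Cbr-col-109 had 22.2, 8.95 and 52.4 CPM. Cbr-col-104 and Cbr-col-182 had the same order. In the last 4, replicate 1 was highest and replicate 3 lowest, the order of 60.1% of the 283. Cbr-bli-2, at 16.7, 12.7 and 2.25 CPM, and Cbr-bli-1, at 24.6, 19.3 and 4.60 CPM, encode collagens that C. elegans uses in the adult cuticle, and Cbr-col-110 and Cbr-col-153 had the same order.

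The order of the libraries was the same under TMM and RLE scaling, the size factors of DESeq2, for 15 of these 15 collagens. Past 4-fold under TMM were 5 of 5 genes highest in replicate 3, 2 of 6 highest in replicate 2, and 2 of 4 highest in replicate 1. None of the 15 was past 4-fold between replicates 1 and 2 alone.

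**Figure D5:**
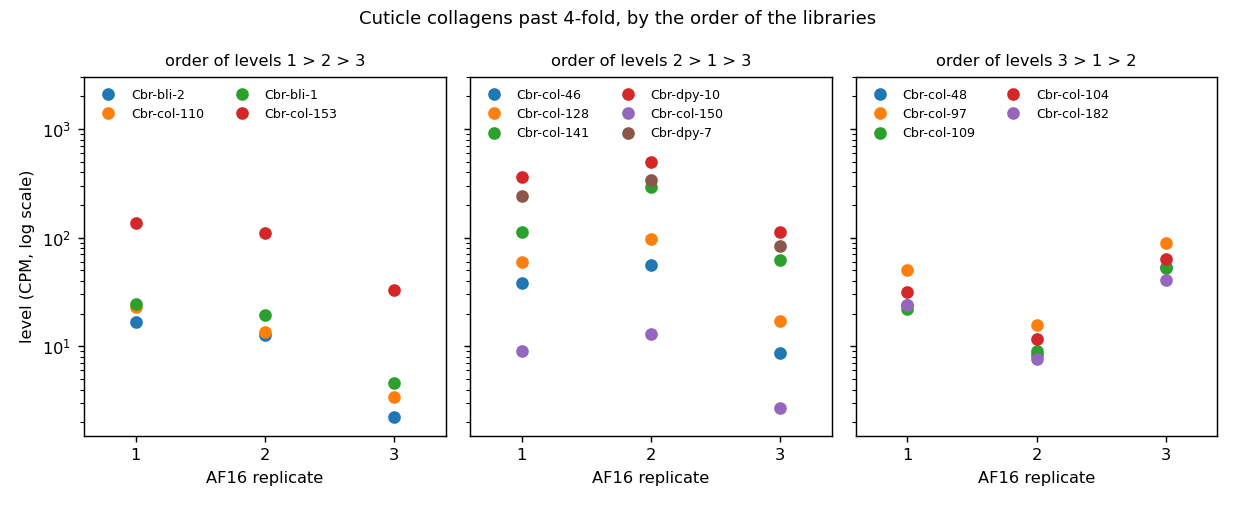
Level (y axis, CPM, log scale) of the 15 cuticle collagens past 4-fold in AF16 replicates 1, 2 and 3 (x axis), 1 colour per gene, in a panel for each order of the libraries. The 5 genes of the right panel are lowest in replicate 2 and highest in replicate 3, whereas the 10 genes of the other panels are lowest in replicate 3.

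Over all 72 tested collagens, replicate 3 highest and replicate 2 lowest was the commonest order, with 25 genes (34.7%, against 8.79% of all tested genes, both on library totals). It held for abundant members, such as Cbr-dpy-5 with 2058, 1063 and 2343 CPM, Cbr-dpy-4 with 1711, 750.5 and 1899 CPM, and Cbr-col-130 with 910.3, 853 and 2629 CPM. For Cbr-col-130 the order changed by TMM, with replicate 1 lowest. Replicate 2 highest and replicate 3 lowest held for 15 genes (20.8%), a share near the 24.4% of all tested genes, among them Cbr-dpy-2 with 92.5, 119.2 and 29.7 CPM, Cbr-dpy-3 with 201, 294 and 98.3 CPM, and Cbr-dpy-8 with 292, 385.5 and 99.4 CPM. These 5 dpy genes and Cbr-col-130 were chosen after their values were seen. By TMM 25 collagens had replicate 3 highest and replicate 2 lowest, and 12 had replicate 2 highest and replicate 3 lowest. Replicate 3 highest and replicate 1 lowest rose from 8 collagens to 14. Of all tested genes, 41.1% were highest in replicate 3 by TMM, against 17.3% on library totals, so the 8.79% is particular to library totals. By TMM 21.8% of all tested genes were lowest in replicate 2, whichever library was highest. The share of all tested genes in each order by TMM was not counted. The 25, 12 and 14 collagens therefore have no general share beside them. In C. elegans dpy-2, dpy-3, dpy-7, dpy-8 and dpy-10 belong to the early wave of collagens between molts and dpy-5 to a later one. The 5 hypodermal markers were lowest in sum in replicate 3, at 1281, 922 and 649 CPM. Most of that sum came from the collagen genes Cbr-rol-6 and Cbr-dpy-7, so it is not separate from the collagen patterns. The hypodermal factor gene Cbr-elt-1 was highest in replicate 3, with 24.6, 23.7 and 30.97 CPM. Cbr-elt-3 had 98, 145 and 133 counts, too few to order replicates 2 and 3 on library totals. Cbr-lin-26 was nearly level on library totals, but by TMM it was highest in replicate 3, with a ratio of 1.29. The part of hypodermal RNA content, or of the time of harvest within the stage, in these patterns was not tested.

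Other apical matrix genes were found in both patterns. The cuticlin gene Cbr-cut-2 had 154, 52.9 and 362 CPM, in the order of Cbr-col-48, and its direct neighbour CBG06719 had 121, 36.5 and 230.2 CPM. The hedgehog-related gene Cbr-grl-16 had 375, 133 and 712 CPM, also highest in replicate 3. The hedgehog-related gene Cbr-wrt-10, chosen after its values were seen, had 292, 398 and 86.1 CPM, in the order of Cbr-dpy-7. Cbr-qua-1, a hedgehog-related gene needed for molting in C. elegans, had 499, 363 and 90.3 CPM. In all, 6 of 42 tested hedgehog-related and patched-related genes were past 4-fold (14.3%, against 3.16% of all tested genes).

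Of 31 tested molting genes, 1 was past 4-fold (3.23%, near the 3.16% of all tested genes), and the median ratio was 2.16, against 1.53 over all tested genes. The protease inhibitor gene Cbr-mlt-11 had 1321, 1407 and 599 CPM, the fibrillin-like gene Cbr-fbn-1 had 739, 1117 and 518 CPM, and Cbr-noah-2 had 590.2, 635 and 293 CPM. Lowest in replicate 2, in contrast, were Cbr-mlt-10, with 50.997, 18.3 and 48.1 CPM, and the astacin protease gene Cbr-nas-36, with 36.6, 12.2 and 34.1 CPM. These 5 genes were chosen after their values were seen.

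Variable genes lay beside each other in the annotation in 17 cases. There were 5030 adjacent pairs with both genes tested and 242 with at least 1 gene past 4-fold, and the 17 pairs held 33 of the 283 genes (11.7%). Besides CBG12814 and CBG12815, they include Cbr-cut-2 with CBG06719, CBG08865 with CBG08866, and CBG01702 with CBG01703. CBG08866 had 584, 186 and 951 CPM and CBG01702 had 344.8, 154 and 935 CPM. In each of these 3 pairs both genes were highest in replicate 3 and lowest in replicate 2. Other neighbours differed in order on library totals. CBG26435, beside CBG01703, was highest in replicate 1 and lowest in replicate 3. Cbr-cyp-35B2 and CBG08778 were highest in replicate 1, and their neighbours CBG01390 and CBG08779 in replicate 3. CBG13659 was highest in replicate 1 and CBG13660 in replicate 2, though by TMM both were highest in replicate 2. Reads from overlapping genes cannot be told apart, since no source used here gives the strand setting of the counting.

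Some genes had almost the same share of reads in every library. Among genes with a symbol and a mean of at least 50 CPM, Cbr-pat-10 had the smallest coefficient of variation, 0.24%. Next came Cbr-tag-173 with 100.7, 101.4 and 100.8 CPM, Cbr-pde-6, a phosphodiesterase gene, with 54.1, 53.7 and 53.9 CPM, and Cbr-asg-1, an ATP synthase subunit gene, with 91.9, 91.2 and 91.4 CPM. Cbr-let-711, the NOT1 homologue of the deadenylase complex, had 324, 325 and 328 CPM. This stability was found on library totals only. With TMM the ratio of the highest to the lowest library was 1.36 to 1.38 for the 8 most stable genes, with replicate 3 highest.

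Genes that serve as qPCR references in C. elegans were all detected, and their sum was 2043, 2085 and 2139 CPM. Cbr-tba-1, an alpha-tubulin gene, had 561, 584 and 573 CPM, Cbr-cdc-42 had 91.1, 83.7 and 68.1 CPM, and Cbr-pmp-3 had 50.7, 52.6 and 67.6 CPM. The scale decided which was the steadier. Cbr-tba-1 had a ratio of 1.04 by library totals and 1.40 by TMM, and Cbr-cdc-42 had 1.34 by library totals and 1.02 by TMM.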

How the data were processed

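RNA-seq of whole L3 animals was used for 3 AF16 libraries, sequenced as single reads. The deposited files hold whole-number read counts for each gene; per the file headers and values the authors did not normalize them. The series table held the same AF16 columns as the 3 libraries' own tables. STAR, Trim Galore, FastQC and DESeq are named, without versions, in the submitters' processing notes. The genome build, annotation, counter and strand option were not given in the sources used here. Counts of 22922 identifiers were divided by the library total (CPM); 22727 were found under the same locus tag in the RefSeq gene table of CB4, which served for names, gene class and neighbouring genes. Promoter, protein and transcript sequences and lengths were not used here, so no level is given per length.

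Detection was set at 1 CPM in each library. Ratios of highest to lowest library were taken on CPM + 0.5 for genes with a mean of at least 5 CPM. The chi-square test against library totals (2 degrees of freedom, mean of at least 10 counts, Benjamini-Hochberg) measures departure from counting error. The biological coefficient of variation is edgeR 4.0.16's common dispersion after TMM in R 4.3.3; DESeq2 1.42.0 gave RLE size factors. Other steps used Python 3.11.15, pandas 2.3.3 and scipy 1.17.1, and were tested on simulated counts. Intervals and floors cover counting error only.

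The 35 gene lists, matched by symbol to C. elegans families, and the members were chosen with earlier results of these data known, and several lists were corrected after the symbols were seen. Genes were named by rule: the 15 highest means overall and with a symbol, the 8 largest ratios and the 15 largest with a symbol, the 8 smallest coefficients of variation with a symbol and a mean of 50 CPM, from each list the 3 highest members and the largest ratio, all vulval induction genes, Cbr-spr-4 and Cbr-htz-1. Other list members, markers and neighbours given with values were chosen after their values were seen. The list of major sperm protein genes matched no symbol and was dropped.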

Additional observations from a re-analysis of the deposited data

How the results depend on the processing

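The count of detected genes stayed between 9675 and 11488 under 0.5 CPM, 2 CPM, 10 counts, TMM or RLE (main 10677), and between 10711 and 11176 with 1 library left out. Silent genes numbered 8182 when up to 3 counts were allowed, 5589 with libraries thinned to the smallest total, and 5841 to 6269 without 1 library. The share of the top 10 genes ranged from 5.17 to 6.19%. Genes past counting error ranged from 7459 to 8831 under the other scalings and filters and from 4145 to 7805 with 1 library left out, lowest without replicate 3. The count past 4-fold (main 283) moved most: 175 with TMM, 171 with RLE, 325 and 161 with 0.1 and 2 CPM added, 425 with a mean of at least 1 CPM, 126 with 20 CPM, 439 without a filter, and 32 to 193 with 1 library left out, lowest without replicate 3. The mean of 5 CPM is taken on each setting's own scale and libraries, hence 32 beside the 33 given above, and 175 beside the 141 and 37, which were counted without that limit for the 141. The biological coefficient of variation was 33.1% on library totals and 19.5 to 32.8% with 1 library left out. Lists whose sums differed over 1.5-fold numbered 5, with TMM 8, with RLE 8, and 1 to 5 with 1 library left out. Named genes over 1.5-fold numbered 85, with TMM or RLE 117, and 35 to 75 with 1 library left out. The cause of these moves was not tested. Levels per coding length were not run. No paired analysis was possible because only AF16 was used. Depth limits genes under about 1 CPM, among them Cbr-lin-3.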
